A study of Mus musculus with 10 samples.

Results

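Neutrophil maturation and granule genes are described here in mouse bone marrow cultures followed from 4 to 120 h, with and without adiponectin. The members were a list of 37 genes named by symbol for what their products do in neutrophils. The rule itself used no measured value, but the list was chosen with earlier results of these data known. Of the 37 genes, 35 had a probe set annotated with that symbol alone, among 19938 genes so measured. Each was read by 1 probe set, and all 35 lay above the median gene in mean signal over the 10 arrays. That mean hides low late values. In the 120 h array without adiponectin, whose median was 8.44, several lay below it, such as Ms4a3 (6.88), Fcnb (7.84) and Ly6g (8.08). How such low signal bears on their changes was not tested. Fpr1 and Fpr2, which encode formyl peptide receptors, had no probe set annotated with their symbol alone and were not analysed here.

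The cells came from the long bones of male Swiss mice aged 4 to 6 weeks and were grown in wells of mixed marrow cells. Total RNA of each culture was hybridised to an Affymetrix array, with no cell type sorted. Both arms shared αMEM medium with FCS (fetal calf serum) and 1,25(OH)2D3, the active form of vitamin D. The control cultures received vehicle, and the adiponectin cultures received recombinant mouse adiponectin, a hormone of fat cells, at 5 µg/ml. RNA was taken at 4, 10, 24, 72 and 120 h, which gave 10 arrays with 1 per arm and time. The series title names lipopolysaccharide, a bacterial cell wall component, as a contaminant, so adiponectin and such a contaminant cannot be told apart in the treated arm. Nothing in the labels ties a culture to an animal of its own, so the p-values below carry no measure of spread between animals. With 1 array per arm and time, like cultures were not repeated either, and the error is what each fit leaves over. For the contrasts of times and the adiponectin effect this is disagreement between the arms across times, which may be technical. For the slopes it also holds any departure from a straight line over log2 hours. Values are the deposited log2 signals, and the median over named genes ranged from 8.27 in the control array at 10 h to 8.48 in the control array at 24 h.

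Neutrophils mature in the bone marrow through ordered stages, and their granule proteins are made in the same order. Promyelocytes fill the primary (azurophilic) granules with serine proteases and myeloperoxidase, myelocytes and metamyelocytes then make the secondary and tertiary granule proteins, and segmented cells carry the receptors and enzymes of the mature cell. Mature neutrophils are short-lived, and marrow holds a large store of them beside their dividing precursors. Transcription factors of the ETS family, such as PU.1, and of the C/EBP family, such as C/EBPα and C/EBPε, are known to drive the early and the late granule genes.

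The results below turn on the primary granule genes set against the late granule genes, so the stretch just upstream of 3 genes of each kind is shown. The sequences are RefSeq's for GRCm38.p6, read 5′ to 3′ on the strand of the gene and ending 1 base before its annotated start. In the first 3, Elane at chr10:79886162-79886311 (plus strand), Prtn3 at chr10:79879517-79879666 (plus strand) and Mpo at chr11:87793534-87793783 (plus strand), capitals mark GAGGAAGT, letters that fit an ETS factor motif.
Elane: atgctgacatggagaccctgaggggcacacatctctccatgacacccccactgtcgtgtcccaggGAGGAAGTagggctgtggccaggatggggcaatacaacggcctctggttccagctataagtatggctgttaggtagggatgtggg
Prtn3: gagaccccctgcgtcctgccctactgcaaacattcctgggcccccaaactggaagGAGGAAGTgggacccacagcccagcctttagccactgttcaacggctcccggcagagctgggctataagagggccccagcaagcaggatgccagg
Mpo: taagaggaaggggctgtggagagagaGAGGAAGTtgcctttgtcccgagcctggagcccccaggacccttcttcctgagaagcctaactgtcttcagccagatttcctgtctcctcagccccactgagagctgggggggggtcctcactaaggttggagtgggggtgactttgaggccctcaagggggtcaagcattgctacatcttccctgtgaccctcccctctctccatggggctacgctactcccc
In the late granule genes Ltf at chr9:111019142-111019291 (plus strand), Ngp at chr9:110419658-110419807 (plus strand) and Fcnb at chr2:28084879-28085128 (minus strand), capitals mark TTGCNNAA, letters that fit a C/EBP motif, or the same letters on the other strand.
Ltf: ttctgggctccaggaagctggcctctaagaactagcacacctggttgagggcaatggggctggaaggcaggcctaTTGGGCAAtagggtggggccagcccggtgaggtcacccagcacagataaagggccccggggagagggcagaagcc
Ngp: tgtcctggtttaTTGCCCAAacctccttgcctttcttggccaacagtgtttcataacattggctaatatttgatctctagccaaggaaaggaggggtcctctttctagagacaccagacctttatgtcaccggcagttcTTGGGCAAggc
Fcnb: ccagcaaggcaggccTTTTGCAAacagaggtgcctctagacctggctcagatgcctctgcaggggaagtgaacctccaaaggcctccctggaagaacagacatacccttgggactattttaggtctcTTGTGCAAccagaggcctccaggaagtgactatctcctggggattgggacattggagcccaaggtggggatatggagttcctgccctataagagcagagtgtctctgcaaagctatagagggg

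A promoter entry was at hand for 32 of the 35 measured members. Searched on both strands over 250 bases upstream, GAGGAAGT was present in 7 of the 32 (21.9%), against 2.44% of 32851 promoters. TTGCNNAA was present in 9 of the 32 (28.1%), against 9.56% of all promoters. A member counted as a gene if any of its promoter entries held the letters. The shares over all promoters were counted per entry, an unlike unit that can favour the members. The first set of letters stood in 3 primary granule genes (Elane, Prtn3 and Mpo), in the late granule gene Olfm4, and in the maturation genes S100a8, Ly6g and Itgb2l. The second stood in Ltf, Ngp and Fcnb among the late granule genes and also in Gfi1, Mgst1, S100a9, Ly6g, Retnlg and Anxa1. The 2 motifs do not overlap in Ly6g, the only member that held both. Both motifs were chosen after the sequences were seen, and a match is a description of letters and not a site.

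Most of the set fell between the first day and the fifth day of culture. From 24 to 120 h, 28 of 35 members fell and none rose, with a median change of -2.66 on the log2 scale beside 0.019 over all genes. Over the 19938 genes, 7.12% fell and 5.08% rose by the same test. The 7 members that did not pass were Gfi1, Mgst1, Cxcr4, Cybb, Cyba, Ncf4 and Lyz2. The test was limma's contrast of the 2 arrays at each time, in a fit of time and treatment over all 10 arrays with 4 residual degrees of freedom, and adjusted p-values (Benjamini-Hochberg, called under 0.05) ran over all named genes. In these whole cultures, fewer neutrophils and less RNA per neutrophil cannot be told apart. Beside this fall, all 7 osteoclast markers rose from 24 to 120 h, and their mean level went from 10.69 to 12.43 in the control arm and from 10.26 to 12.04 in the adiponectin arm. Of 8 macrophage markers, 2 rose and none fell, and their mean level went from 12.70 to 13.07 in the control arm and from 12.61 to 13.06 in the adiponectin arm. The part of these other cells in the fall was not tested.

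**Figure D1:**
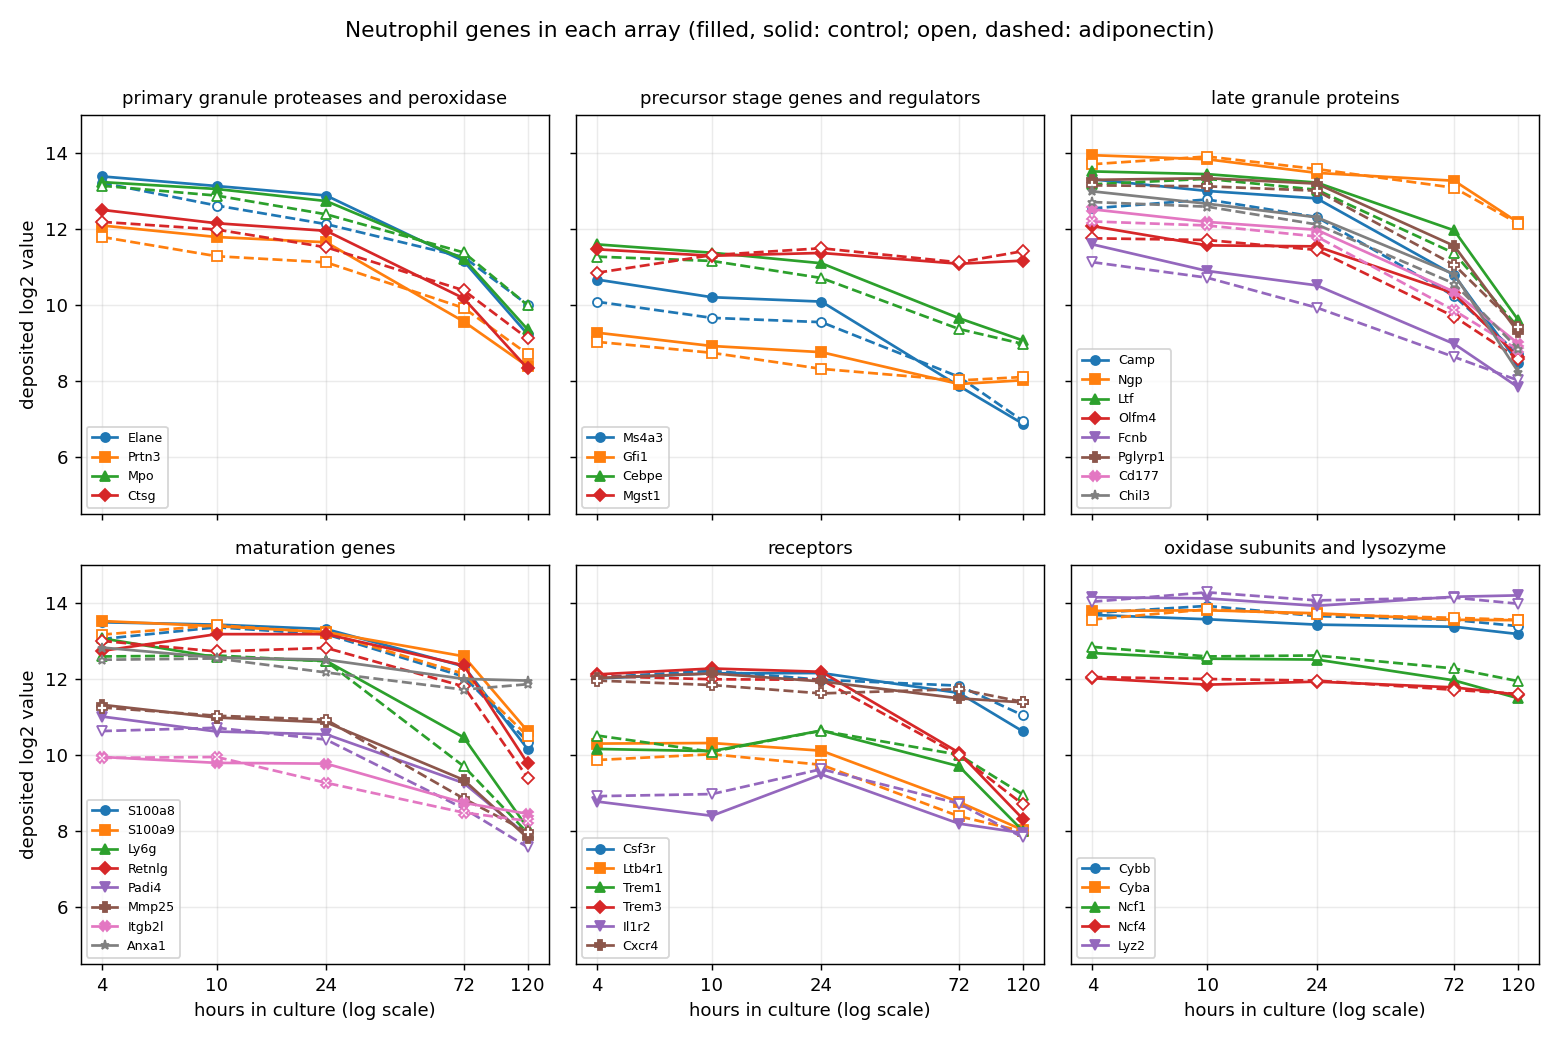
Deposited log2 value of each measured member in each array, in 6 panels by role, over hours in culture on a log scale; filled symbols and solid lines are the control cultures, open symbols and dashed lines the adiponectin cultures, with 1 array per point. Most lines bend down after 24 h, while Lyz2, Cyba, Cybb and Mgst1 stay nearly level.

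The primary granule genes all fell, and by closely similar amounts. Elane, which encodes neutrophil elastase, read 13.38, 13.13, 12.88, 11.15 and 9.23 in the control cultures at 4, 10, 24, 72 and 120 h and 13.21, 12.62, 12.12, 11.26 and 10.005 in the adiponectin cultures. The control array was the higher at the first 3 times and the adiponectin array at the last 2. From 24 to 120 h Elane fell by 2.88 ± 0.28 (7.38-fold; adjusted p = 4.93e-05). Prtn3, encoding proteinase 3, read 12.09, 11.79, 11.65, 9.56 and 8.39 in the controls and 11.79, 11.28, 11.12, 9.92 and 8.71 with adiponectin at the same times. It fell by 2.84 ± 0.22 (7.14-fold; adjusted p = 8.86e-06). Its arms crossed between 24 and 72 h, as those of Elane did. Mpo, the gene of myeloperoxidase, gave 13.23, 13.05, 12.73, 11.22 and 9.36 in control arrays and 13.13, 12.88, 12.38, 11.38 and 9.99 in adiponectin arrays. Mpo fell by 2.88 ± 0.20 (7.38-fold; adjusted p = 3.97e-06). Ctsg, encoding cathepsin G, gave 12.50, 12.15, 11.95, 10.17 and 8.33 in control arrays and 12.19, 11.98, 11.52, 10.38 and 9.12 in adiponectin arrays. Ctsg fell by 3.01 ± 0.24 (8.05-fold; adjusted p = 1.2e-05), the largest estimate of the 4, although the 4 estimates lie within 1 standard error of each other. No late array of either arm reached any array of the first day for these 4 genes.

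Precursor stage genes split. Ms4a3, a surface protein gene of granulocyte-monocyte progenitors, read 10.67, 10.20, 10.09, 7.87 and 6.88 in the controls and 10.08, 9.66, 9.55, 8.11 and 6.95 with adiponectin, and it fell by 2.90 ± 0.20 (7.49-fold; adjusted p = 4.38e-06). Cebpe, the C/EBPε factor that late granule genes need, read 11.59, 11.37, 11.10, 9.65 and 9.07 in the controls and 11.27, 11.16, 10.71, 9.37 and 8.97 with adiponectin. It fell by 1.88 ± 0.12 (3.69-fold; adjusted p = 1.93e-06), and the adiponectin array was the lower at every time. Gfi1, a zinc finger repressor that acts in neutrophil commitment, read 9.27, 8.92, 8.76, 7.92 and 8.02 in the controls and 9.03, 8.74, 8.32, 8.01 and 8.10 with adiponectin. Its change after 24 h, -0.48 ± 0.14 (adjusted p = 0.0572), missed the threshold, and in both arms the 120 h array was no lower than the 72 h array. Its slope over the 5 times passed in both arms. It was -0.28 ± 0.036 per doubling of time in the control arm (adjusted p = 0.0047) and -0.21 ± 0.036 in the adiponectin arm (adjusted p = 0.00931). Both calls were lost without the 72 or 120 h pair, and the adiponectin call also without the 4 h pair and with linear hours. Mgst1, a membrane glutathione transferase found in many cell types, read 11.46, 11.29, 11.37, 11.08 and 11.17 in the controls and 10.85, 11.31, 11.49, 11.12 and 11.41 with adiponectin, with no trend that both arms shared.

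All 8 late granule genes fell. Camp, which encodes cathelicidin, read 13.30, 12.998, 12.80, 10.79 and 8.48 in the controls and 12.54, 12.77, 12.31, 10.23 and 8.71 with adiponectin, and it fell by 3.96 ± 0.20 (15.6-fold; adjusted p = 4.16e-07), the largest estimate of this group. Ltf, encoding lactoferrin, read 13.51, 13.44, 13.22, 11.96 and 9.61 in the controls and 13.17, 13.32, 13.03, 11.36 and 9.42 with adiponectin. It fell by 3.61 ± 0.13 (12.2-fold; adjusted p = 8.53e-08), and its adiponectin array was the lower at all 5 times. Pglyrp1, a peptidoglycan-binding protein gene, read 13.29, 13.33, 13.19, 11.55 and 9.28 in the controls and 13.14, 13.12, 13.005, 11.05 and 9.41 with adiponectin, and it fell by 3.75 ± 0.14 (13.5-fold; adjusted p = 9.23e-08). Chil3, a chitinase-like protein gene that activated macrophages also express, read 12.99, 12.66, 12.31, 10.81 and 8.24 in the controls and 12.71, 12.58, 12.12, 10.56 and 8.85 with adiponectin. It fell by 3.67 ± 0.19 (12.7-fold; adjusted p = 5.12e-07). At 24 h each of these 4 was still within 1 log2 unit of its 4 h value in both arms.

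Cd177, a surface glycoprotein gene of neutrophils, read 12.51, 12.18, 11.98, 10.35 and 8.98 in the controls and 12.20, 12.09, 11.80, 9.86 and 8.82 with adiponectin, and it fell by 2.98 ± 0.13 (7.91-fold; adjusted p = 1.46e-07). Olfm4, the olfactomedin 4 gene that marks a subset of neutrophils, read 12.07, 11.57, 11.54, 10.30 and 8.63 in the controls and 11.75, 11.71, 11.45, 9.69 and 8.59 with adiponectin. It fell by 2.88 ± 0.16 (7.38-fold; adjusted p = 1.02e-06). Fcnb, encoding ficolin B, was among the earliest to decline, with 11.59, 10.90, 10.52, 8.98 and 7.84 in the controls and 11.12, 10.72, 9.93, 8.63 and 8.02 with adiponectin. It fell by 2.30 ± 0.17 (4.91-fold; adjusted p = 6e-06). Ngp, the neutrophilic granule protein gene, fell least of the 8, with 13.94, 13.83, 13.47, 13.27 and 12.17 in the controls and 13.70, 13.90, 13.57, 13.08 and 12.14 with adiponectin. It fell by 1.37 ± 0.12 (2.58-fold; adjusted p = 3.23e-05), and in both arms its last array was the lowest.

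The 8 maturation genes also fell, over a wide range. Ly6g, the surface antigen by which mouse neutrophils are sorted, read 13.07, 12.57, 12.48, 10.47 and 8.08 in the controls and 12.59, 12.62, 12.47, 9.71 and 7.95 with adiponectin. It fell by 4.46 ± 0.18 (21.9-fold; adjusted p = 1.17e-07), the largest estimate of all members. S100a8, one chain of calprotectin, read 13.49, 13.43, 13.31, 12.34 and 10.16 in the controls and 13.05, 13.36, 13.18, 12.07 and 10.36 with adiponectin, and it fell by 2.99 ± 0.15 (7.92-fold; adjusted p = 4.04e-07). S100a9, the other chain, read 13.53, 13.39, 13.23, 12.60 and 10.63 in the controls and 13.17, 13.42, 13.22, 12.14 and 10.50 with adiponectin. It fell by 2.66 ± 0.14 (6.32-fold; adjusted p = 5.51e-07), and both chains stayed within 1 log2 unit of their 4 h value until 24 h. Retnlg, a resistin-like gene of maturing neutrophils, read 12.74, 13.18, 13.18, 12.36 and 9.78 in the controls and 13.004, 12.73, 12.82, 11.81 and 9.41 with adiponectin. It fell by 3.41 ± 0.18 (10.6-fold; adjusted p = 4.93e-07), and in the control arm its 10 and 24 h arrays were above its 4 h array.

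Padi4, encoding the histone-citrullinating enzyme of extracellular trap formation, read 11.02, 10.62, 10.55, 9.27 and 7.87 in the controls and 10.63, 10.72, 10.41, 8.60 and 7.58 with adiponectin. It fell by 2.75 ± 0.16 (6.73-fold; adjusted p = 1.25e-06). Mmp25, a membrane-anchored metalloproteinase gene of leukocytes, read 11.32, 10.99, 10.86, 9.35 and 7.82 in the controls and 11.25, 11.04, 10.93, 8.86 and 7.97 with adiponectin, and it fell by 2.998 ± 0.15 (7.99-fold; adjusted p = 4.89e-07). Itgb2l, an integrin β2-like gene, read 9.95, 9.80, 9.78, 8.75 and 8.46 in the controls and 9.93, 9.95, 9.27, 8.49 and 8.27 with adiponectin. It fell by 1.16 ± 0.15 (2.23-fold; adjusted p = 0.000477), a smaller change than that of the other maturation genes apart from Anxa1. Anxa1, the annexin A1 gene that many myeloid cells use, read 12.83, 12.56, 12.51, 12.01 and 11.96 in the controls and 12.51, 12.54, 12.17, 11.72 and 11.86 with adiponectin. It fell by 0.43 ± 0.12 (1.35-fold; adjusted p = 0.0442), a call that was lost without the 72 h pair (adjusted p = 0.0777).

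Of the 6 measured receptors, 5 fell. Trem3, an activating receptor gene, read 12.12, 12.28, 12.19, 10.07 and 8.32 in the controls and 12.08, 11.99, 11.98, 10.001 and 8.71 with adiponectin, and it fell by 3.57 ± 0.15 (11.9-fold; adjusted p = 1.56e-07). Its neighbour Trem1, which amplifies inflammatory signals, read 10.16, 10.10, 10.65, 9.71 and 8.01 in the controls and 10.52, 10.09, 10.64, 10.01 and 8.96 with adiponectin. It fell by 2.16 ± 0.20 (4.47-fold; adjusted p = 3.88e-05), with its highest value at 24 h in both arms. Ltb4r1, the leukotriene B4 receptor gene, read 10.30, 10.32, 10.12, 8.77 and 8.03 in the controls and 9.87, 10.02, 9.75, 8.39 and 7.996 with adiponectin. It fell by 1.92 ± 0.13 (3.78-fold; adjusted p = 3.01e-06). Il1r2, the interleukin-1 decoy receptor, read 8.78, 8.40, 9.49, 8.20 and 7.95 in the controls and 8.92, 8.98, 9.63, 8.73 and 7.83 with adiponectin. It fell by 1.67 ± 0.16 (3.18-fold; adjusted p = 6.03e-05), and both arms peaked at 24 h. Csf3r, the G-CSF receptor, read 12.02, 12.15, 12.16, 11.64 and 10.62 in the controls and 12.05, 12.22, 11.98, 11.83 and 11.05 with adiponectin, and it fell by 1.23 ± 0.14 (2.35-fold; adjusted p = 0.000201). Cxcr4, the receptor that retains neutrophils in marrow and is shared with many other cells, read 12.03, 12.15, 11.94, 11.49 and 11.39 in the controls and 11.96, 11.84, 11.62, 11.74 and 11.40 with adiponectin. Its change from 24 to 120 h, -0.39 ± 0.15 (adjusted p = 0.128), did not pass, while its slope in the control arm did (-0.15 ± 0.035 per doubling of time, adjusted p = 0.0267), a call lost without the 10, 72 or 120 h pair.

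Oxidase and lysozyme genes, which macrophages also express, were the exception, with 1 of 5 called. Ncf1, encoding p47phox, read 12.68, 12.54, 12.51, 11.97 and 11.50 in the controls and 12.85, 12.60, 12.62, 12.28 and 11.95 with adiponectin, and it fell by 0.85 ± 0.13 (1.8-fold; adjusted p = 0.00126). Cybb, encoding gp91phox, read 13.69, 13.57, 13.43, 13.38 and 13.18 in the controls and 13.74, 13.93, 13.66, 13.55 and 13.39 with adiponectin, with a change of -0.26 ± 0.12 (adjusted p = 0.214). Lyz2, the lysozyme gene, read 14.15, 14.12, 13.93, 14.16 and 14.20 in the controls and 14.03, 14.28, 14.07, 14.14 and 13.98 with adiponectin, with a change of 0.094 ± 0.13 (adjusted p = 0.743). For Lyz2 the 120 h arrays lay close to the range of the first day. Cyba, encoding p22phox, and Ncf4, encoding p40phox, changed by -0.16 ± 0.12 (adjusted p = 0.478) and -0.35 ± 0.11 (adjusted p = 0.0706).

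Most of the fall lay after 24 h in both arms, over intervals of unequal length. From 4 to 24 h the members' median change was -0.29 in the control arm and -0.23 in the adiponectin arm. From 24 to 72 h it was -1.26 and -1.08, and from 72 to 120 h it was -1.18 and -1.02. The primary granule genes of the adiponectin arm already changed by a median of -0.71 from 4 to 24 h, before -1.07 in the longer interval from 24 to 72 h. Over the whole course Ly6g dropped 31.8-fold in the control arm and 25.0-fold in the adiponectin arm, and Camp 28.4-fold and 14.2-fold. Among the members called from 24 to 120 h, the smallest drops over the whole course were 1.77-fold for Il1r2 in the control arm and 1.56-fold for Anxa1 in the adiponectin arm. These folds are differences between 2 arrays of an arm and carry no test.

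**Figure D2:**
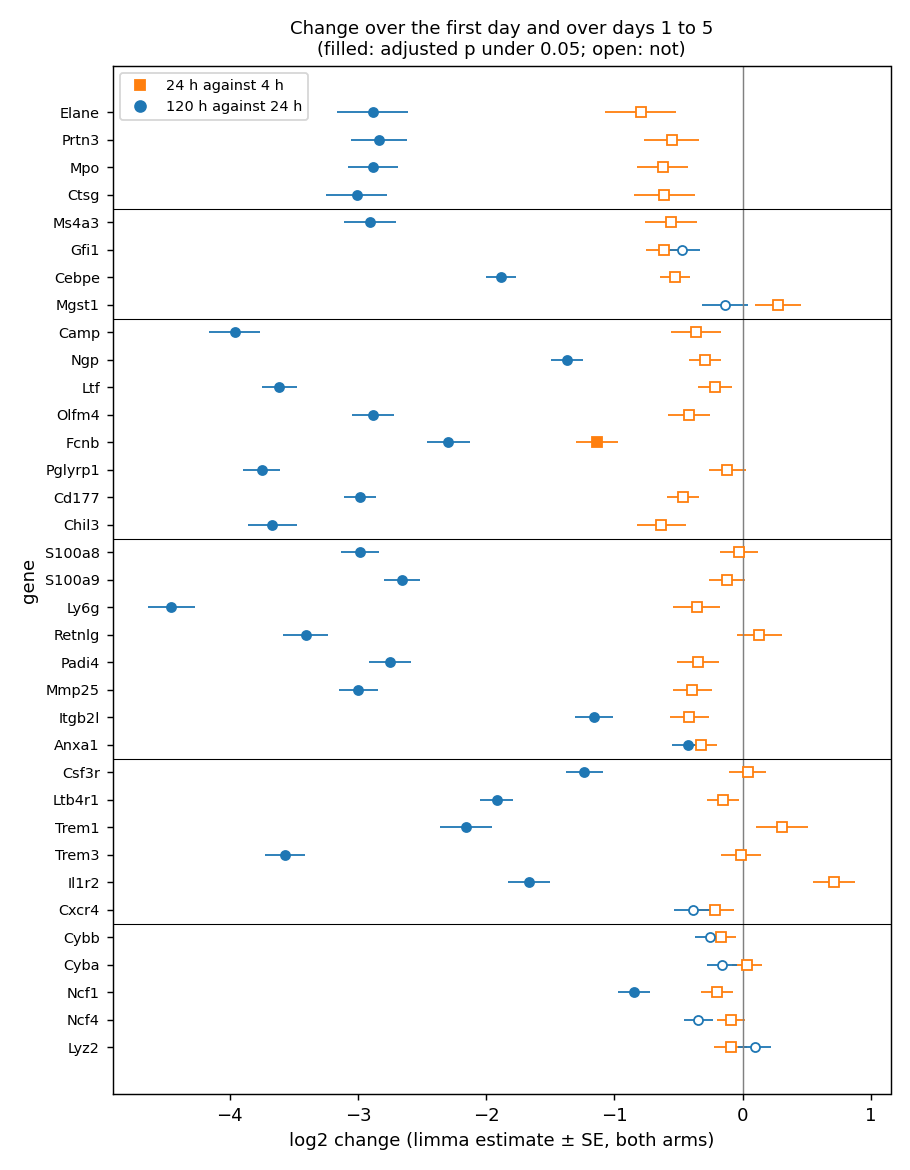
Limma estimate ± SE of the log2 change of each measured member over both arms, from 4 to 24 h (squares) and from 24 to 120 h (circles), with lines between the role groups and filled symbols where the adjusted p is under 0.05. Of the squares only that of Fcnb, at -1.14, is filled, and 28 of the 35 circles are filled, down to -4.46 for Ly6g.

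The contrast of 24 h with 4 h called 1 member, Fcnb, which fell by 1.14 ± 0.17 (2.20-fold; limma, adjusted p = 0.019). No member rose, and over all genes 0.145% fell and 0.396% rose. Cebpe (-0.53 ± 0.12, adjusted p = 0.0864) and Gfi1 (-0.61 ± 0.14, adjusted p = 0.101) followed without passing. Il1r2 had the largest positive estimate, 0.71 ± 0.16 with an adjusted p of 0.0956, and both of its 24 h arrays lay above both of its 4 h arrays.

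A slope over log2 hours was fitted in each arm, with 6 residual degrees of freedom. In the control arm 24 of 35 members fell and none rose, where 4.45% of all genes fell and 4.64% rose. In the adiponectin arm 22 of 35 fell and none rose, where 3.46% of all genes fell and 4.15% rose. The steepest control slopes were those of Ly6g at -0.93 ± 0.21 per doubling of time (adjusted p = 0.0261) and Camp at -0.91 ± 0.19 (adjusted p = 0.0199). In the adiponectin arm these 2 genes had slopes of -0.95 ± 0.21 and -0.79 ± 0.19. Without the 72 h pair 1 member was called in each arm, and the same count was left without the 120 h pair. The calls over all genes dropped too, from 888 falling genes in the control arm to 27 when the 72 h arrays were left out and 17 when those at 120 h were, and from 689 in the adiponectin arm to 50 and 15. The members' median slope in the control arm was -0.53 with all arrays, -0.63 with no 72 h array and -0.36 with no 120 h array. In the adiponectin arm the medians were -0.51, -0.57 and -0.37. Without the 10 h pair 10 members were called in the control arm and 5 in the adiponectin arm, with median slopes of -0.52 and -0.48. Falling genes over the whole table were then 617 in the control arm and 320 in the adiponectin arm.

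The balance of primary against late granule genes is given for each array, as a description. The mean log2 value of the 4 primary granule genes minus that of the 8 late granule genes was -0.10, -0.086, -0.076, -0.47 and -0.33 in the control cultures at 4, 10, 24, 72 and 120 h. In the adiponectin cultures it was 0.037, -0.34, -0.37, 0.18 and 0.21 at the same times. Its sign has no meaning by itself, since probe sets differ in response, and its movement between single arrays was not tested. Adiponectin arrays were below their controls at 10 and 24 h and above them at 4, 72 and 120 h. The least-squares slope per doubling of time was -0.070 ± 0.032 (SE, 5 arrays) in the control arm and 0.068 ± 0.070 in the adiponectin arm, with no test. With the maturation genes in place of the late granule genes the slopes were -0.24 and -0.040.

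**Figure D3:**
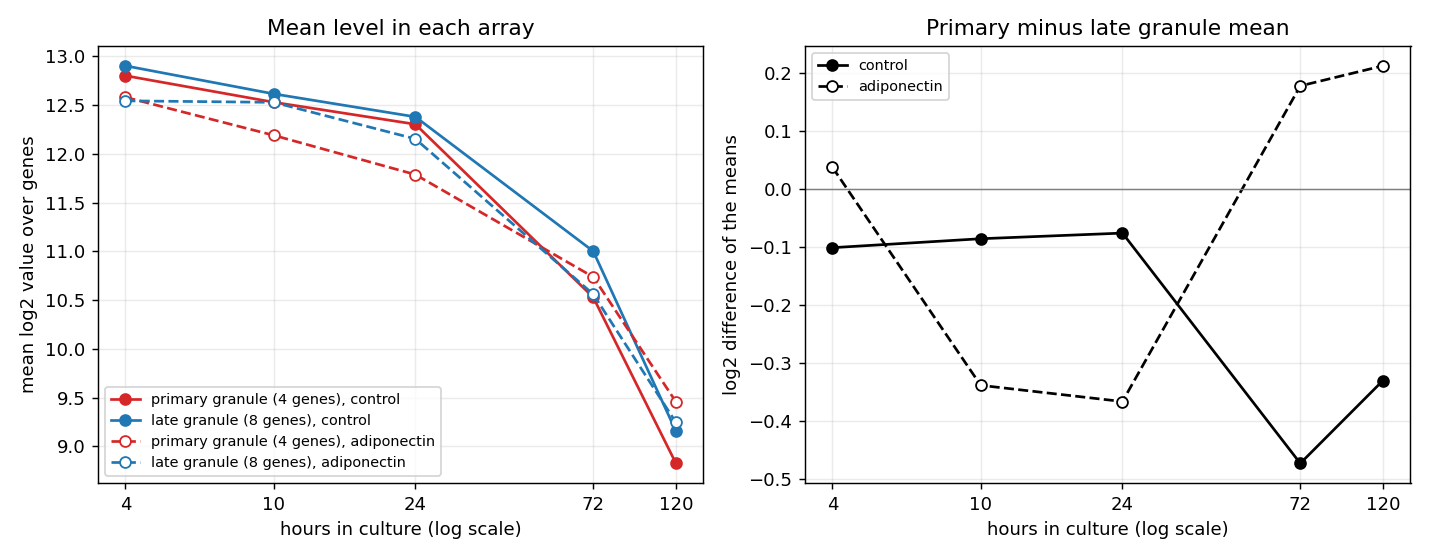
Left, mean log2 value of the 4 primary (red) and the 8 late (blue) granule genes in each array over hours in culture on a log scale, with filled symbols for control and open symbols for adiponectin; right, the primary mean minus the late mean in each array. All 4 lines on the left fall after 24 h, and on the right the control array is at -0.33 and the adiponectin array at 0.21 at 120 h.

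Set against the control of the same time, the adiponectin cultures differed by less than 2-fold in every member, as in most genes. The differences ran from -0.76 for Camp at 4 h to 0.95 for Trem1 at 120 h. Each such difference compares 1 array with 1 array. The 4 primary granule genes were all lower with adiponectin at 4, 10 and 24 h, with medians of -0.24, -0.34 and -0.48, and all higher at 72 and 120 h, with medians of 0.19 and 0.71. For Elane the 5 differences were -0.17, -0.51, -0.75, 0.11 and 0.78, and for Ctsg -0.32, -0.17, -0.43, 0.21 and 0.79. Ms4a3 had the same signs, with -0.58, -0.54, -0.54, 0.24 and 0.076.

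The late granule genes leaned lower up to 24 h as the primary ones did, and parted from them at 72 and 120 h. The difference between the classes was not tested. All 8 were lower with adiponectin at 4 h (median -0.32), 6 of 8 at 10 h (median -0.11) and 7 of 8 at 24 h (median -0.19). All 8 were lower at 72 h (median -0.50), and 4 of 8 were lower at 120 h (median 0.049). At 4 h some other lists leaned lower too, with 9 of 10 eosinophil, mast cell and basophil markers (median -0.21), 4 of 5 monocyte markers (median -0.23) and 6 of 8 macrophage markers (median -0.092). Stromal markers (5 of 7), B cell markers (4 of 7) and erythroid markers (3 of 4) were also more often lower. In contrast, 4 of 7 osteoclast markers (median 0.15) and 4 of 6 T and NK cell markers (median 0.065) were higher. A second list of neutrophil genes, described below, had 15 higher and 16 lower (median -0.0057). The 8 maturation genes were likewise all lower at 72 h, with a median of -0.48, where Ly6g differed by -0.76 and Padi4 by -0.67. At 72 h the osteoclast markers were also all 7 lower with adiponectin, with a median of -1.13, and macrophage markers were lower in 2 of 8, with a median of 0.18. Their part in the differences was not tested.

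Counted over the set, 7, 15, 8, 14 and 21 of 35 members were higher with adiponectin at 4, 10, 24, 72 and 120 h. The count at 10 h depends on the array level, since 6 of 35 were higher there once each array was centred on its median. No member passed 2-fold in either direction at any time. Over all genes, 0.727%, 0.893%, 0.853%, 0.547% and 0.752% were at least 2-fold higher at the 5 times, and 0.120%, 0.130%, 0.226%, 0.155% and 0.0301% at least 2-fold lower. The largest difference of a member was 0.95 for Trem1 at 120 h.

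**Figure D4:**
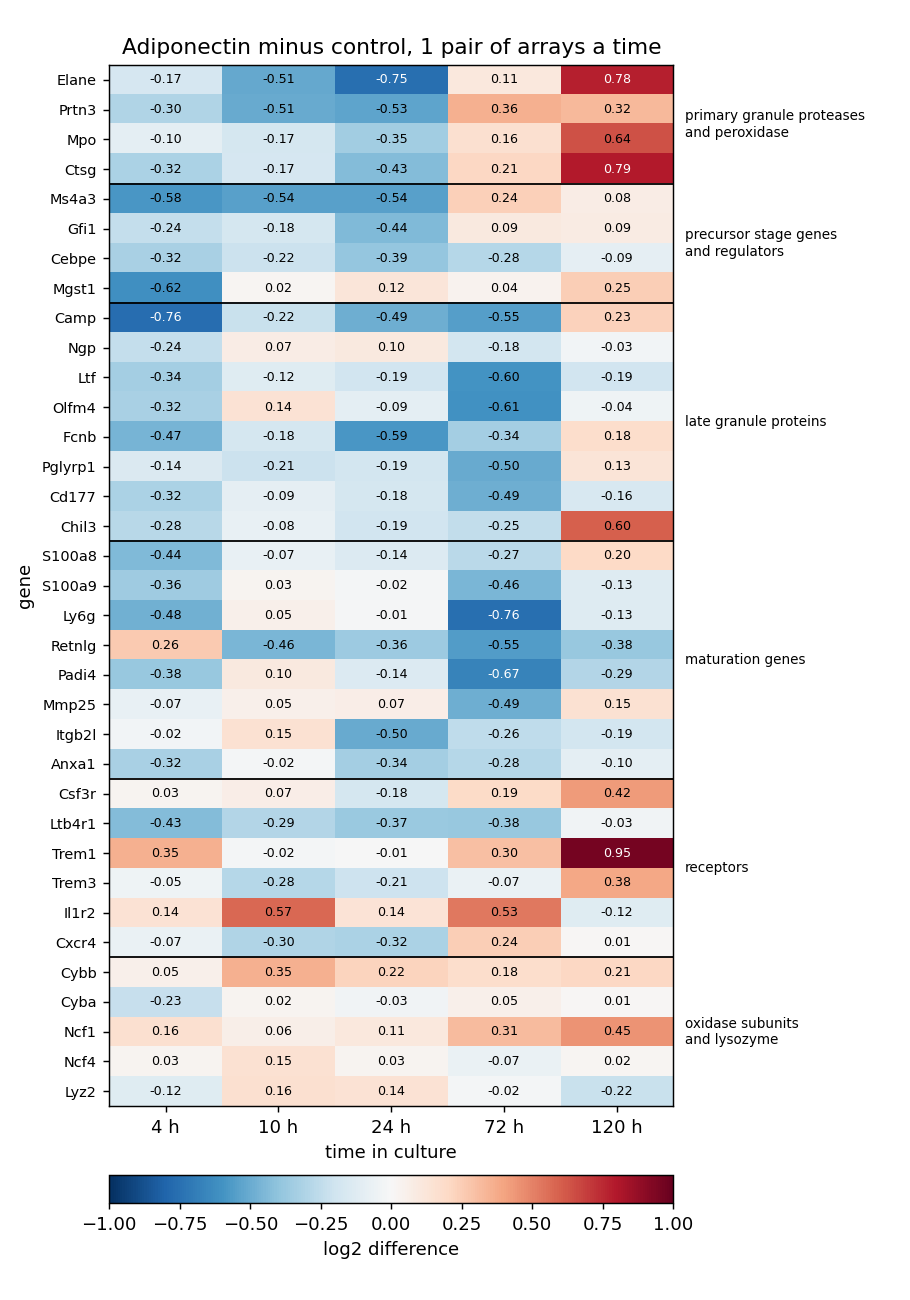
Adiponectin minus control in log2 units for each measured member (rows, by role) at each time (columns), 1 array against 1 array per cell. The primary granule genes change from lower to higher between 24 and 72 h, and the late granule and maturation genes have their lowest medians, -0.50 and -0.48, at 72 h.

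Over the 5 times together no member passed the test of the adiponectin effect. The fit had treatment beside time as a block, and limma called 0 of 35 members higher and 0 lower, where 2.05% of all genes were called higher and 0.371% lower. At an unadjusted p under 0.05, 4 of 35 members were higher and 10 lower, against 1178 and 840 of the 19938 genes. The members' median estimate was -0.13 beside 0.014 over all genes. With quantile normalization applied again, and with an intensity trend and robust prior, 1 member was called lower in each case, Cebpe (adjusted p = 0.0421) and Ltf (adjusted p = 0.0487). Camp was called lower without the 120 h pair (adjusted p = 0.031) and Retnlg without the 4 h pair (adjusted p = 0.0195).

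Some members kept 1 direction at all 5 times. Cybb and Ncf1 were higher with adiponectin in 5 of 5 pairs, as were 6.32% of all genes, with estimates of 0.20 ± 0.073 (adjusted p = 0.307) and 0.22 ± 0.080 (adjusted p = 0.313). With each array centred on its median, a setting added after the values were seen, Ncf1 was lower at 10 h (-0.078) and Cybb alone was higher in 5 of 5 pairs, as were 5.41% of all genes. Cebpe, Ltf, Cd177, Anxa1 and Ltb4r1 were lower in 5 of 5 pairs, as were 4.40% of all genes, and with centred arrays these 5 and Padi4 were, as were 5.47% of all genes. Ltb4r1 had differences of -0.43, -0.29, -0.37, -0.38 and -0.033 and an estimate of -0.30 ± 0.080 (adjusted p = 0.098). Cebpe had differences of -0.32, -0.22, -0.39, -0.28 and -0.092 and an estimate of -0.26 ± 0.074 (adjusted p = 0.129). The receptors Trem1 (0.32 ± 0.13, adjusted p = 0.386) and Il1r2 (0.25 ± 0.10, adjusted p = 0.411) leaned the other way, each with 1 or more pairs against its mean.

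Whether the effect changed with time was tested as an interaction with log2 hours, with 3 residual degrees of freedom. No member was called in either direction by limma, and 0% of all genes were called higher and 0% lower. At an unadjusted p under 0.05, 5 members (Prtn3, Mpo, Ctsg, Ms4a3 and Mgst1) had a rising effect and 0 a falling one, against 620 and 1339 of all genes. The intensity trend with robust prior called 2 genes higher and 3 lower in the whole table, linear hours called 2 higher, and leaving out the 4, 10 or 72 h pair called 1 higher. The estimates were 0.20 ± 0.061 (adjusted p = 0.499) for Ctsg, 0.19 ± 0.084 (adjusted p = 0.507) for Elane and 0.17 ± 0.058 (adjusted p = 0.499) for Prtn3 per doubling of time. Setting 72 and 120 h against 4 to 24 h, a contrast chosen after the values were seen, gave 0.78 ± 0.13 for Prtn3 (adjusted p = 0.198) and 0.71 ± 0.13 for Ms4a3 (adjusted p = 0.222). No gene of 19938 was called by it.

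Other genes used by neutrophils were taken from a second list of 35, of which 31 were measured. From 24 to 120 h 16 of 31 fell, where 7.12% of all genes fell. Cebpa and Mmp9 rose, and 2 of 31 is a share near the 5.08% of all genes that rose. The largest falls by limma were those of Serpinb1a (-3.53 ± 0.18, adjusted p = 5.12e-07) and Cxcr2 (-3.11 ± 0.12, adjusted p = 8.53e-08), the chemokine receptor of mature neutrophils. In the control arm 11 fell and 1 rose over time, where 4.45% of all genes fell and 4.64% rose. In the adiponectin arm 8 fell and none rose, where 3.46% of all genes fell and 4.15% rose. Without the 72 h or the 120 h pair 1 fell in the control arm and none in the adiponectin arm. The 3 steepest falls in the control arm were those of Serpinb1a, an inhibitor of neutrophil serine proteases (-0.85 ± 0.15 per doubling, adjusted p = 0.0125), Nkg7, a granule membrane gene shared with cytotoxic lymphocytes (-0.77 ± 0.068, adjusted p = 0.00158), and Myb, a factor of dividing progenitors (-0.71 ± 0.11, adjusted p = 0.00743). Myb was also the 1 gene of this list called from 4 to 24 h, with a fall of 0.74 ± 0.12 (adjusted p = 0.0263), where 0.145% of all genes fell. The 1 that rose was Mmp9 (0.29 ± 0.068, adjusted p = 0.0301), a gelatinase of neutrophils that osteoclasts make too. Mmp9 is also counted among the osteoclast markers above. Of these 4 slopes, only that of Nkg7 kept its call in all 12 alternatives.

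The adiponectin effect over the 5 times was called, as higher, for 1 of these 31 genes, a share near the 2.05% of all genes called higher. Cebpb, the C/EBPβ factor of emergency granulopoiesis, read 9.81, 9.67, 10.02, 9.71 and 9.47 in the controls and 10.50, 9.90, 10.35, 9.99 and 9.84 with adiponectin. It was higher in 5 of 5 pairs, by 0.38 ± 0.083 (1.30-fold; adjusted p = 0.0399). The call of Cebpb is weak: it was kept in 3 of 11 alternatives, with adjusted p from 0.0262 to 0.26, and lost whichever pair of arrays was left out, with centred arrays, with quantile normalization and without the time block. Nkg7 had differences of -0.88, -0.41, -0.44, 1.10 and 2.33, a change with time of 0.61 ± 0.094 (adjusted p = 0.151) per doubling that did not pass. With linear hours in place of log2 hours, 1 of the 31 genes had a called change of the effect, as had 2 of all 19938 genes. T and NK cell markers, 6 measured, were at mean levels of 6.76 to 6.90 in the control arm and 6.78 to 7.18 in the adiponectin arm, and their part in the Nkg7 values was not tested.

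Markers of other marrow cells were called in both directions between 24 and 120 h, where 7.12% of all genes fell and 5.08% rose. The mean level of a list is given at 24 h and then at 120 h. Among 7 measured B cell markers 5 fell, and their mean was 10.56 and 8.80 in the control arm and 10.57 and 8.90 in the adiponectin arm. Of 10 eosinophil, mast cell and basophil markers 6 fell, with means of 8.54 and 7.67 in the control arm and 8.57 and 7.65 in the adiponectin arm. Of 4 erythroid markers 2 fell, with means of 8.58 and 7.87 in the control arm and 8.29 and 7.79 in the adiponectin arm. The monocyte, stromal, and T and NK cell lists had at most 1 call in a direction. In lists this short, 1 call cannot be told apart from the shares over all genes. Of 5 monocyte markers 1 fell, with means of 10.98 and 10.20 in the control arm and 10.71 and 10.34 in the adiponectin arm. Stromal markers, 7 measured, had 1 that rose and 1 that fell, with means of 9.90 and 10.19 in the control arm and 9.88 and 10.17 in the adiponectin arm. T and NK cell markers had 1 that rose and 1 that fell. Whether the neutrophil genes and these markers fell for a common reason was not tested.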

How the data were processed

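Total RNA of 10 cultures (5 control, 5 adiponectin) was measured on Affymetrix arrays, 1 array per arm and time. The deposited table holds log2 values made by the authors, and the submitters' processing notes name Affymetrix Expression Console, RMA and Partek without versions or order. Of 35556 probe sets, 21789 carried 1 gene symbol in GEO's platform annotation, 1621 several and 12146 none. The probe set with the highest mean stood for each of 19938 genes. Fits used limma 3.58.1 in R 4.3.3 (lmFit, eBayes, two-sided, Benjamini-Hochberg over all 19938 genes, adjusted p under 0.05), with time as a block for the adiponectin effect, and were tested on simulated data with known changes. The number of arrays limits the precision.

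The members, the lists and the tests were chosen with earlier results of these data known. Members were named with their values in each array where they passed a test or had the highest or lowest change of their role; Cybb was added after its values were seen. Alternatives covered normalization, centring, the probe set rule, a filter on dim genes, the prior, the time scale, the block and each pair of arrays left out. Promoters came from RefSeq. No protein sequence was used here.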

Additional observations from a re-analysis of the deposited data

Results flagged for a closer look

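Across the 5 pairs of arrays, 3 of the 35 members had 1 pair far from the other 4, measured as the gap to the nearest other pair over the whole range. Chance alone marks about 1 in 20 such groups of values. Mgst1 differed by -0.62 (adiponectin minus control, log2) at 4 h, with the other pairs between 0.017 and 0.25. Retnlg differed by 0.26 at 4 h, with the other pairs between -0.55 and -0.36. Chil3 differed by 0.60 at 120 h, with the other pairs between -0.28 and -0.078. Each of these values is a single pair of arrays.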

How the results depend on the processing

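From 24 to 120 h, 27 of the 28 calls were kept under every alternative run, and Anxa1 was lost without the 72 h pair; the call of Fcnb from 4 to 24 h was kept under every alternative. No called estimate changed sign, but the slope of the primary minus late granule mean in the adiponectin arm, which has no test, did. The number of members that fell with adiponectin, 0 in the report, was 1 with quantile normalization, 1 with the intensity trend and robust prior, and 0 to 1 when each pair was left out. Without the time block it stayed at 0. The number with a falling slope in the control arm, 24, was 1 to 26 with each pair left out. Linear hours lost none of these and added S100a8, S100a9, Retnlg, Csf3r, Trem1, Cybb and Ncf4. In the adiponectin arm, 22 became 14 with the trend and robust prior and 1 to 23 with each pair left out. There linear hours lost Gfi1 and added Ngp, S100a8, S100a9, Retnlg, Csf3r and Ncf4. Over all genes, linear hours called 1335 falling in the control arm and 919 in the adiponectin arm, against 888 and 689 with log2 hours. Only Fcnb kept its slope call under all settings in both arms. From 4 to 24 h, 1 became 2 with the trend and robust prior, adding Cebpe (adjusted p = 0.0482). Members higher at 10 h were 15, or 6 with centred arrays. The slope of the primary minus late granule mean was -0.070 in the control arm, or -0.24 with the maturation genes. It was 0.068 in the adiponectin arm, or -0.040 with the maturation genes and 0.035 to 0.18 with each pair left out, the highest without the 4 h pair. The cause of these shifts was not tested. Centring moved the split of all genes called in the control slope from 925 up and 888 down to 738 up and 1559 down, and from 4 to 24 h from 79 up and 29 down to 57 up and 57 down. With 1 array per arm and time, no single time carries a test.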

Other observations

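Among the measured members, 3 pairs are next to each other among the protein-coding genes: Prtn3 and Elane, Trem1 and Trem3, and S100a8 and S100a9. From 24 to 120 h the limma estimate ± SE (log2) was -2.84 ± 0.22 for Prtn3 and -2.88 ± 0.28 for Elane. It was -2.99 ± 0.15 for S100a8 and -2.66 ± 0.14 for S100a9. It was -2.16 ± 0.20 for Trem1 and -3.57 ± 0.15 for Trem3, a larger gap than in the other pairs, and the difference itself was not tested.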
